A study of Mus musculus with 7 samples.

Results

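The genes described here are 34 mouse genes of cholesterol and fatty acid synthesis under the SREBP factors, with genes that regulate these factors. They were listed by name and pathway, with earlier results of these data known, and all 34 were found among the 11642 rows of the deposited expression table, each in 1 row. The sterol branch holds 19 of them, from the condensation of acetyl-CoA to the last reductase of cholesterol synthesis. The fatty acid branch holds 9 genes, the regulators of SREBP are 5 genes, and Stard4 encodes a carrier that moves cholesterol between membranes. The rows of Tm7sf2, Srebf1 and Scd2 join each of these genes with genes that overlap it, so their values cannot be given to 1 gene alone.

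Cells make cholesterol from acetyl-CoA through mevalonate, isoprenoid diphosphates, squalene and lanosterol, and the same isoprenoid diphosphates feed protein prenylation, dolichol and ubiquinone. The SREBP factors are made as precursors in the membrane of the endoplasmic reticulum, where the escort protein Scap and the INSIG proteins hold them while sterols are plentiful. When sterols run low, Scap carries SREBP to the Golgi apparatus, proteases release its transcription factor domain, and genes of sterol and fatty acid synthesis are switched on. SREBP-2, from Srebf2, acts mainly on the sterol genes, and SREBP-1c, from Srebf1, mainly on the fatty acid genes. Both products go into cell membranes, which grow and fuse as myoblasts form myotubes.

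C2C12 is a line of mouse myoblasts that leaves the cell cycle and fuses into myotubes in low serum. Total RNA depleted of ribosomal RNA was sequenced on day 2 of differentiation from 2 samples transfected with a scramble siRNA (si-SCR) and 2 samples transfected with siRNA #1 against lnc-SMaRT (si-SMaRT), a long noncoding RNA of differentiating muscle. The series also holds 3 libraries of an RNA pull-down, which are the input, the RNA recovered with probes against lnc-SMaRT and the RNA recovered with control probes against LacZ. A single siRNA was used in 1 cell line. The samples of a group were independent populations of cells, and their number limits every test.

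Values are RPKM, reads scaled by the length of the gene and the size of the library, and can therefore be compared between genes. The effective library sizes were between 11291255 and 14312935 reads. The level of lnc-SMaRT was 19.1 and 15.9 RPKM in the si-SCR samples against 2.88 and 3.66 RPKM in the si-SMaRT samples, and it fell by 2.39 ± 0.28 on the log2 scale (SE, limma adjusted p = 0.000882). Muscle markers were present in all 4 samples. Their summed level was 6836 and 7636 RPKM in si-SCR and 5847 and 3574 RPKM in si-SMaRT, and 7 of 8 had a lower mean in si-SMaRT (median -0.61 on the log2 scale), with none past the threshold (3 at an unadjusted p under 0.05, 1 with limma-voom). Of 7 markers of dividing or undifferentiated myoblasts, 6 were listed, with sums of 131 and 112 RPKM in si-SCR and 126 and 167 RPKM in si-SMaRT. Among these Id3 rose by 1.60 on the log2 scale (limma adjusted p = 0.0232). Of 7 adipocyte markers Fabp4, Adipoq, Plin1 and Cidec were not listed. The summed level of the 3 others, Pparg, Cebpa and Lpl, was 3.29 and 3.14 RPKM in si-SCR and 5.17 and 5.64 RPKM in si-SMaRT. Pparg was at 1.75 and 1.57 RPKM in si-SCR and at 1.16 and 1.97 RPKM in si-SMaRT. Cebpa was at 0.72 and 0.89 RPKM in si-SCR and at 1.92 and 0.93 RPKM in si-SMaRT (difference 0.68, log2, limma adjusted p = 0.608). With the trend with GC content removed, Cebpa rose by 0.90 on the log2 scale (limma adjusted p = 0.0414). Lpl, a lipase that muscle also makes, rose by 1.56 on the log2 scale (limma adjusted p = 0.0375). Both calls were lost without si-SCR 1, with adjusted p = 0.716 for Id3 and 0.557 for Lpl, and without si-SCR 2, with 0.345 for Id3 and 0.943 for Lpl in limma. That of Lpl was also lost with quantile normalization (adjusted p = 0.0697). The part of these markers in the results for the lipid genes was not tested.

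Most genes of the sterol branch had a lower level after lnc-SMaRT depletion, whereas genes of the fatty acid branch and the regulators lay on both sides of the control level. Of the 19 sterol genes 18 had a lower mean in si-SMaRT, with a median difference of -0.61 on the log2 scale, and of the 9 fatty acid genes 6 had a lower mean, with a median of -0.21. Over the 11086 genes tested the median was 0.02, and 47.7% of genes had a lower mean. Both si-SMaRT samples were below both si-SCR samples for 14 of 19 sterol genes, 4 of 9 fatty acid genes and 1 of 5 regulators, which is found for 20.4% of all genes tested, and the reverse order was found for 0 of the 34 members and 20.2% of all genes tested. The summed level of the sterol branch was 1126 and 1092 RPKM in the si-SCR samples and 634 and 751 RPKM in the si-SMaRT samples. That of the fatty acid branch was 549 and 664 RPKM in si-SCR and 509 and 463 RPKM in si-SMaRT. The sums of the 2 groups did not overlap in either branch, and the gap was wide for the sterol genes and narrow for the fatty acid genes. By mean log2(RPKM + 0.1) the fatty acid branch did overlap, at 4.71 and 4.95 in si-SCR and 4.76 and 4.51 in si-SMaRT. By this measure si-SMaRT 1 lay between the si-SCR samples. The sum over all rows of the table was also lower, at 529691 and 478897 RPKM in si-SCR and 428937 and 387393 RPKM in si-SMaRT. RPKM is scaled by the size of the library, so this sum does not measure the amount of RNA. In these bulk samples, fewer cells of a type and less RNA per cell cannot be told apart.

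**Figure D1:**
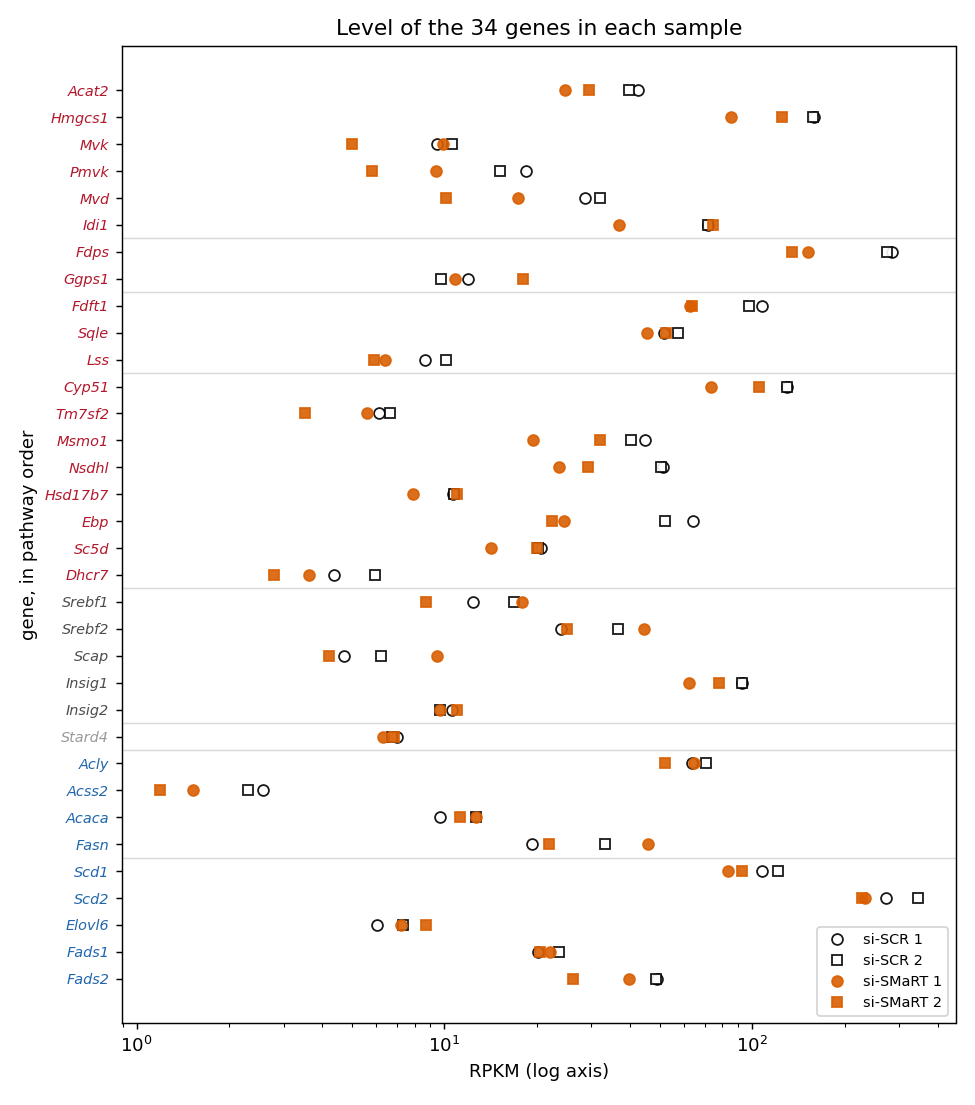
RPKM of the 34 genes in each of the 4 samples, on a log axis, in pathway order, with gene names in red for the sterol branch, dark grey for the regulators, light grey for Stard4 and blue for the fatty acid branch, and grey lines between steps. Both si-SMaRT samples (orange) lie to the left of both si-SCR samples (open) for 14 of 19 sterol genes, while the samples mix for Srebf1, Srebf2, Scap, Fasn and Acaca.

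With few samples most single differences did not pass the threshold. Of the 34 genes 1, Ebp, passed an adjusted p of 0.05, against 0.505% of all genes in either direction and 0.325% in the lower direction. At an unadjusted p under 0.05, 11 sterol genes and 2 fatty acid genes were lower, no regulator was lower and no member was higher. This direction and p were met by 5.6% of all genes tested. The difference between the branches was not tested, because genes of a branch are not replicates. In single samples the mean log2(RPKM + 0.1) of the sterol branch minus that of the fatty acid branch was 0.31 and 0.06 in si-SCR and -0.40 and -0.08 in si-SMaRT. The groups were separate, and the distance between si-SCR 2 and si-SMaRT 2 was smaller than the distance between the si-SMaRT samples.

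**Figure D2:**
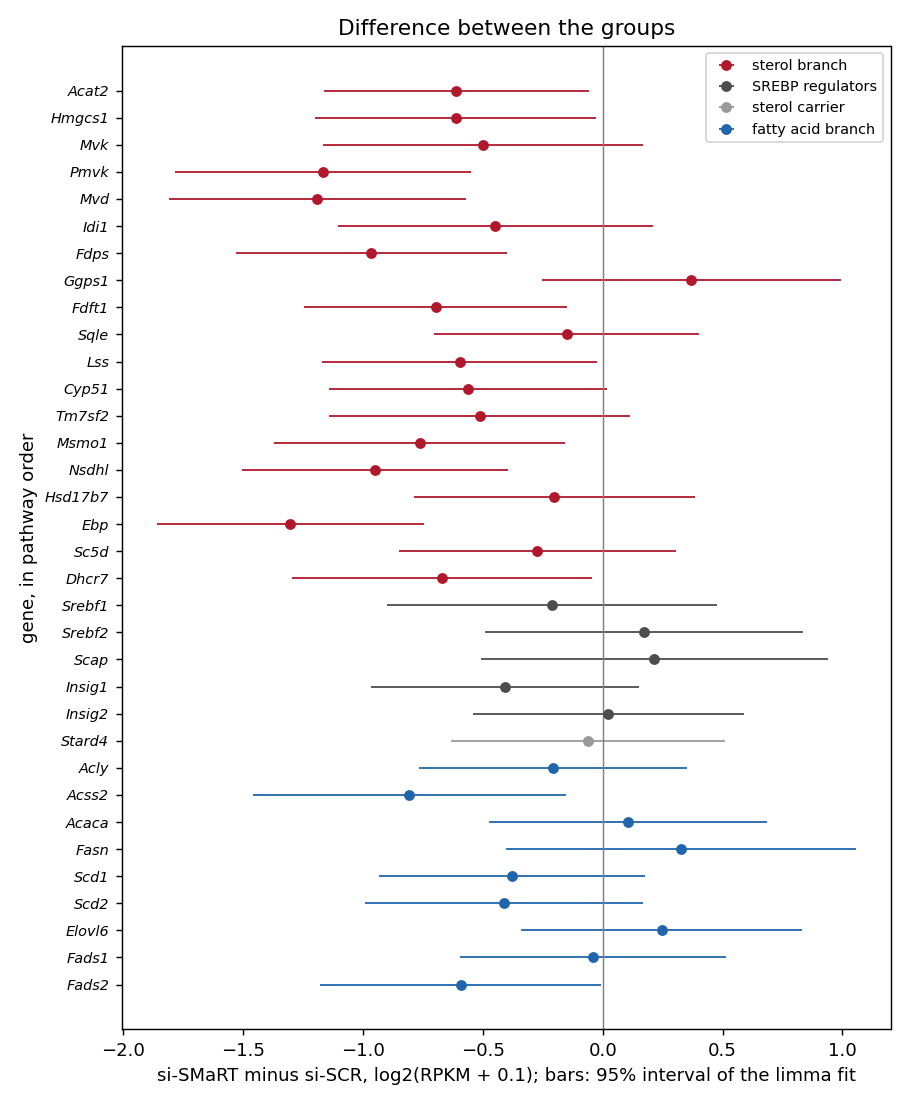
Difference between si-SMaRT and si-SCR in log2(RPKM + 0.1) for each of the 34 genes, in pathway order, with points for the limma estimate, bars for its 95% interval (2 samples per group) and colours for the branches. All sterol genes but Ggps1 lie left of 0, Ebp is the lowest at -1.30, and the regulators and the fatty acid genes lie on both sides of 0.

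The sequence before the start site is shown for the genes of the sterol branch that differed most and had an entry, because SREBP acts there together with the factors NF-Y and Sp1. Hmgcs1, Fasn and Insig1 are shown beside them as a further sterol gene, a fatty acid gene that was not lower and a regulator. The sequences are from RefSeq (GRCm38.p6), are written 5′ to 3′ on the strand of the gene, end before its start site, and were found for 27 of the 34 genes. Capitals mark the letters TCACNCCAC (a sterol regulatory element type), CACGTG (E-box), CCAAT (the NF-Y box) and GGGCGG (the GC box bound by Sp1) on either strand, so that CCAAT on the other strand reads ATTGG and GGGCGG reads CCGCCC. In Fasn a CCAAT on each strand overlap and share their middle bases.

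The stretches are those of Ebp (chrX:8193530-8193692, minus strand), Nsdhl (chrX:72918412-72918515, plus strand), Mvd (chr8:122443435-122443572, minus strand), Pmvk (chr3:89454395-89454419, plus strand), Hmgcs1 (chr13:119690104-119690342, plus strand), Fasn (chr11:120824592-120824647, minus strand) and Insig1 (chr5:28071173-28071326, plus strand).
Ebp: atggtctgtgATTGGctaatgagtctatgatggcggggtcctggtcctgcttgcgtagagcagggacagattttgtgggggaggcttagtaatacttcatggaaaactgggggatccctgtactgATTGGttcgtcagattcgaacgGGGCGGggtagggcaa
Nsdhl: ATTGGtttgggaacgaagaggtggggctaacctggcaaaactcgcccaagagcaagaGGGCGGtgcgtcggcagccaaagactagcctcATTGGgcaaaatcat
Mvd: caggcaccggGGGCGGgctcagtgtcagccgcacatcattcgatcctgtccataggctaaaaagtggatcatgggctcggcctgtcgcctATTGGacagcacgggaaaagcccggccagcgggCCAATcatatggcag
Pmvk: ctcaggttggCCAATtcacagcatc
Hmgcs1: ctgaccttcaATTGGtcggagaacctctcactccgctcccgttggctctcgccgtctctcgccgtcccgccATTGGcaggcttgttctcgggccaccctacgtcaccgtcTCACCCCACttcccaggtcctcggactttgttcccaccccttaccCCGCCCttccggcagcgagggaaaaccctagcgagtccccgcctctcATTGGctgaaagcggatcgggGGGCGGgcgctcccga
Fasn: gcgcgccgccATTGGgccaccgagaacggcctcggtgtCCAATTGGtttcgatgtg
Insig1: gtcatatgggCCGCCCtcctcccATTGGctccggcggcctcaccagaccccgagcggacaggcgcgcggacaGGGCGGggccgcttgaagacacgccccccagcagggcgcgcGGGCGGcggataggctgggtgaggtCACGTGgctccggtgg

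In windows from 250 bases before to 50 bases after the start site, CCAAT was present in 22 of the 27 genes with an entry, namely 15 of 16 sterol genes, 3 of 6 fatty acid genes and 4 of 5 regulators. It was present in 41.1% of all 27025 genes with a window. GGGCGG was present in 14 of 16 sterol genes, 3 of 6 fatty acid genes and 5 of 5 regulators, against 38.2% of all genes. CACGTG was present in 5 of the 27 genes (Hsd17b7, Sc5d, Dhcr7, Scap and Insig1), against 8.09% of all genes. TCACNCCAC was present in 1 of the 27, Hmgcs1, where it begins 137 bases before the start site, against 1.44% of all genes. Ebp has the letters of the NF-Y box beginning 170 and 55 bases before its start, and Fasn has them beginning at 90, 62 and 59 bases. A match of letters is a description of the sequence and was not tested as a site.

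The mevalonate steps turn acetyl-CoA into isopentenyl diphosphate. Acat2, the cytosolic acetyl-CoA acetyltransferase that opens the pathway, was at 42.7 and 39.7 RPKM in si-SCR and at 24.7 and 29.4 RPKM in si-SMaRT. Hmgcs1, the cytosolic HMG-CoA synthase, was at 158.5 and 157.8 RPKM in si-SCR and at 85.3 and 125.1 RPKM in si-SMaRT. Neither gene overlapped between the groups, and their differences of -0.61 ± 0.26 and -0.61 ± 0.28 (log2, SE) had limma adjusted p = 0.478 and 0.513. Pmvk, phosphomevalonate kinase, was at 18.4 and 15.2 RPKM in si-SCR and at 9.36 and 5.82 RPKM in si-SMaRT. Mvd, the decarboxylase that makes isopentenyl diphosphate, was at 28.6 and 32.0 RPKM in si-SCR and at 17.3 and 10.1 RPKM in si-SMaRT. In both genes each si-SMaRT sample was below the si-SCR samples and si-SMaRT 2 was the lowest, and the si-SMaRT mean was 45.2% of the si-SCR mean. The differences of -1.17 ± 0.29 for Pmvk and -1.19 ± 0.29 for Mvd (log2, SE) had limma adjusted p = 0.0994 and 0.0918.

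Mvk and Idi1, of the same steps, overlapped between the groups. Mvk, mevalonate kinase, was at 9.49 and 10.6 RPKM in si-SCR and at 9.90 and 5.02 RPKM in si-SMaRT, so only si-SMaRT 2 was lower. Idi1, the isomerase of isopentenyl diphosphate, was at 72.0 and 71.7 RPKM in si-SCR and at 37.0 and 74.8 RPKM in si-SMaRT, so only si-SMaRT 1 was lower. The mean differences were -0.50 for Mvk and -0.45 for Idi1 on the log2 scale, and without si-SMaRT 1 the value of Idi1 was 0.06.

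The prenyl diphosphate steps held the genes of the sterol branch with the highest level and with the opposite direction. Fdps makes farnesyl diphosphate, the last intermediate shared by sterols and other isoprenoids, and was at 285 and 273 RPKM in si-SCR and at 152 and 135 RPKM in si-SMaRT. The groups were well apart, with a difference of -0.96 ± 0.27 (log2, SE, limma adjusted p = 0.158). Ggps1, which lengthens farnesyl to geranylgeranyl diphosphate for protein prenylation, was at 11.9 and 9.75 RPKM in si-SCR and at 10.9 and 18.0 RPKM in si-SMaRT. It was the only sterol branch gene with a higher mean (0.37 ± 0.30, log2, SE, limma adjusted p = 0.789), and its value without si-SMaRT 2 was 0.01. The ratio of Fdps to Ggps1 was 23.9 and 28.1 in si-SCR and 14.0 and 7.51 in si-SMaRT.

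The squalene steps commit the pathway to sterols. Fdft1, squalene synthase, was at 107.5 and 98.0 RPKM in si-SCR and at 63.0 and 63.6 RPKM in si-SMaRT, with a difference of -0.70 ± 0.26 (log2, SE, limma adjusted p = 0.347). Its si-SMaRT samples were nearly equal and both were lower. Sqle, the squalene epoxidase that is a rate-limiting enzyme, was at 51.5 and 57.3 RPKM in si-SCR and at 45.6 and 52.6 RPKM in si-SMaRT. The groups overlapped, and its difference was -0.15, with a 95% interval from -0.70 to 0.40. Lss, lanosterol synthase, was at 8.65 and 10.1 RPKM in si-SCR and at 6.42 and 5.90 RPKM in si-SMaRT, with a difference of -0.60 ± 0.27 (log2, SE, limma adjusted p = 0.518). The ratio of Fdft1 to Sqle was 2.09 and 1.71 in si-SCR and 1.38 and 1.21 in si-SMaRT, and it was lower in each si-SMaRT sample than in each si-SCR sample.

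All 8 members from lanosterol to cholesterol had a lower mean. For 7 of them both si-SMaRT samples were below both si-SCR samples, the exception being Hsd17b7. That order was found for 20.4% of all genes tested. Lbr, a gene of these pathways that was not a member, had a higher mean in a joined row. Its difference was 0.17 on the log2 scale, and its groups overlapped. Ebp, the sterol isomerase that moves the double bond of the second ring, was at 64.4 and 52.1 RPKM in si-SCR and at 24.5 and 22.4 RPKM in si-SMaRT. Its mean was 58.3 ± 8.66 RPKM in si-SCR and 23.5 ± 1.52 RPKM in si-SMaRT (SD, n = 2), which is 40.3% of the si-SCR level. Ebp (chrX:8185329-8193512, minus strand, GENCODE M21) fell by 1.30 ± 0.26 on the log2 scale (SE, limma adjusted p = 0.0356). The call was lost without si-SCR 1 (difference -1.15, adjusted p = 1.0) and without si-SCR 2 (difference -1.45, adjusted p = 0.699). Its limma adjusted p was 0.0687 with quantile normalization, 0.0583 without a trend in the prior variance and 0.0508 with a replicate block, and ranged from 1.05e-09 to 1.0 over all alternatives.

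Nsdhl, the sterol dehydrogenase that takes part in removing the methyl groups at carbon 4, was the gene of this stretch next to Ebp in size. It was at 51.1 and 50.5 RPKM in si-SCR and at 23.6 and 29.2 RPKM in si-SMaRT, with a difference of -0.95 ± 0.26 (log2, SE, limma adjusted p = 0.158). Msmo1, the oxidase that acts on the same methyl groups, was at 44.7 and 40.3 RPKM in si-SCR and at 19.4 and 32.1 RPKM in si-SMaRT, with a difference of -0.76 ± 0.29 (adjusted p = 0.356, limma). Dhcr7, the reductase that makes cholesterol from 7-dehydrocholesterol, was the sterol gene with the lowest level, at 4.39 and 5.97 RPKM in si-SCR and at 3.63 and 2.79 RPKM in si-SMaRT. In Msmo1 the si-SMaRT samples differed from each other by more than the si-SCR samples did, and in Dhcr7 the reads were few, at least 151 in each sample. Cyp51, lanosterol demethylase, was at 129.9 ± 0.164 RPKM in si-SCR (mean, SD, n = 2) and at 73.5 and 105.3 RPKM in si-SMaRT. Its samples did not overlap, but its unadjusted p was 0.0574. The remaining differences were -0.51 for Tm7sf2, -0.27 for Sc5d and -0.20 for Hsd17b7 on the log2 scale, with limma adjusted p = 0.651, 0.841 and 0.889.

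Among the regulators no gene passed the threshold with limma or with limma-voom, and none had an unadjusted p under 0.05. Srebf2 was at 24.0 and 36.6 RPKM in si-SCR and at 44.6 and 25.0 RPKM in si-SMaRT. Srebf1 was at 12.4 and 16.8 RPKM in si-SCR and at 17.9 and 8.68 RPKM in si-SMaRT. Scap was at 4.73 and 6.22 RPKM in si-SCR and at 9.45 and 4.22 RPKM in si-SMaRT. In these 3 genes si-SMaRT 1 was the highest of the 4 samples, and in Srebf1 and Scap si-SMaRT 2 was the lowest, so the mean differences of 0.17, -0.21 and 0.22 on the log2 scale stood between samples that moved in opposite directions. Their 95% intervals ran from -0.49 to 0.83 for Srebf2, from -0.90 to 0.48 for Srebf1 and from -0.51 to 0.94 for Scap, so that each interval held values on both sides of 0. The ratio of Srebf2 to Srebf1 was 1.93 and 2.18 in si-SCR and 2.49 and 2.88 in si-SMaRT, and was higher in each si-SMaRT sample. Neither gene alone separated the groups. For this and the other ratios given, the share of all gene pairs whose ratios separate the groups was not counted.

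Insig1 and Insig2 encode the 2 retention proteins, of which Insig1 is itself a target of SREBP. Insig1 was at 92.9 and 92.4 RPKM in si-SCR and at 62.5 and 77.9 RPKM in si-SMaRT (difference -0.41 ± 0.26, log2, SE, limma adjusted p = 0.702). It was the 1 regulator of 5 whose groups did not overlap, near the 20.4% of all genes tested with both si-SMaRT samples below both si-SCR samples. Insig2 was at 10.6 and 9.68 RPKM in si-SCR and at 9.67 and 10.96 RPKM in si-SMaRT, with a difference of 0.02. The ratio of Insig1 to Insig2 was 8.77 and 9.55 in si-SCR and 6.46 and 7.11 in si-SMaRT, lower in each si-SMaRT sample than in each si-SCR sample. Stard4 was between 6.31 and 7.03 RPKM in all 4 samples, with a difference of -0.06 and a 95% interval from -0.63 to 0.51.

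In the fatty acid branch no gene passed the threshold with limma or with limma-voom, and 2 were lower at an unadjusted p under 0.05. Acss2, which makes cytosolic acetyl-CoA from acetate, was the member with the lowest level, at 2.57 and 2.30 RPKM in si-SCR and at 1.53 and 1.19 RPKM in si-SMaRT (difference -0.81 ± 0.31, log2, SE, limma adjusted p = 0.371). Acly, which makes acetyl-CoA from citrate, was at 63.7 and 70.5 RPKM in si-SCR and at 64.5 and 52.2 RPKM in si-SMaRT, and the groups overlapped (difference -0.21). Acaca, acetyl-CoA carboxylase, was between 9.66 and 12.7 RPKM in si-SCR and between 11.2 and 12.7 RPKM in si-SMaRT. Fasn, fatty acid synthase, was at 19.3 and 33.3 RPKM in si-SCR and at 46.0 and 21.9 RPKM in si-SMaRT. The highest value of Fasn was that of si-SMaRT 1, as in Srebf2 and Scap, and its difference of 0.33 had a 95% interval from -0.40 to 1.05.

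The desaturases were lower in part. Fads2, the desaturase that opens the synthesis of polyunsaturated fatty acids, was at 48.9 and 48.7 RPKM in si-SCR and at 39.8 and 26.2 RPKM in si-SMaRT (difference -0.59 ± 0.28, log2, SE, limma adjusted p = 0.542). Fads1, which acts after it, was between 20.2 and 23.6 RPKM in all 4 samples (difference -0.04). The ratio of Fads2 to Fads1 was 2.42 and 2.06 in si-SCR and 1.81 and 1.28 in si-SMaRT. Scd2 and Scd1, which make monounsaturated fatty acids, were the first and the fifth gene of the 34 by level in si-SCR. Scd2 was at 271 and 344.5 RPKM in si-SCR and at 232 and 228 RPKM in si-SMaRT, and Scd1 was at 107.6 and 121.4 RPKM in si-SCR and at 83.4 and 92.5 RPKM in si-SMaRT. Neither overlapped between the groups, and their differences were -0.41 ± 0.27 and -0.38 ± 0.26 (log2, SE), with limma adjusted p = 0.717 and 0.733. The ratio of Scd2 to Scd1 was 2.52 and 2.84 in si-SCR and 2.78 and 2.47 in si-SMaRT, and it overlapped between the groups. Elovl6, the elongase of saturated and monounsaturated chains, was at 6.04 and 7.36 RPKM in si-SCR and at 7.20 and 8.74 RPKM in si-SMaRT, the only gene of desaturation and elongation with a higher mean (0.25 ± 0.28, log2, SE, limma adjusted p = 0.857).

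The si-SMaRT samples stood apart from each other, and this touched the members unequally. The difference of si-SMaRT 2 from si-SMaRT 1 fell with the GC content of the exons of a gene, with Spearman's rho of -0.871 over the 34 members and -0.846 over 10864 genes, whereas the difference of si-SCR 2 from si-SCR 1 had a rho of 0.459 over the members. The points share the same 4 libraries, and the values are given as a description. The GC content of the members ran from 40.8% to 59.1%, with a median of 47.5% in the sterol branch, 49.6% in the fatty acid branch and 54.7% among the regulators. Members with a high GC content, such as Fasn, Srebf1, Srebf2 and Scap, were higher in si-SMaRT 1 than in si-SMaRT 2. Members with a low GC content, such as Idi1, Ggps1 and Msmo1, were lower in si-SMaRT 1 than in si-SMaRT 2. Mvd, with a GC content of 59.1%, and Pmvk, with 54.7%, were also higher in si-SMaRT 1 than in si-SMaRT 2. Both genes were nevertheless below the si-SCR samples in each si-SMaRT sample. By the read counts of the paper, the filter for rRNA and tRNA removed a larger share of read pairs from si-SMaRT 1 than from any other of the 4 samples. Whether GC content, this loss or another property of the libraries caused the pattern was not tested.

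**Figure D3:**
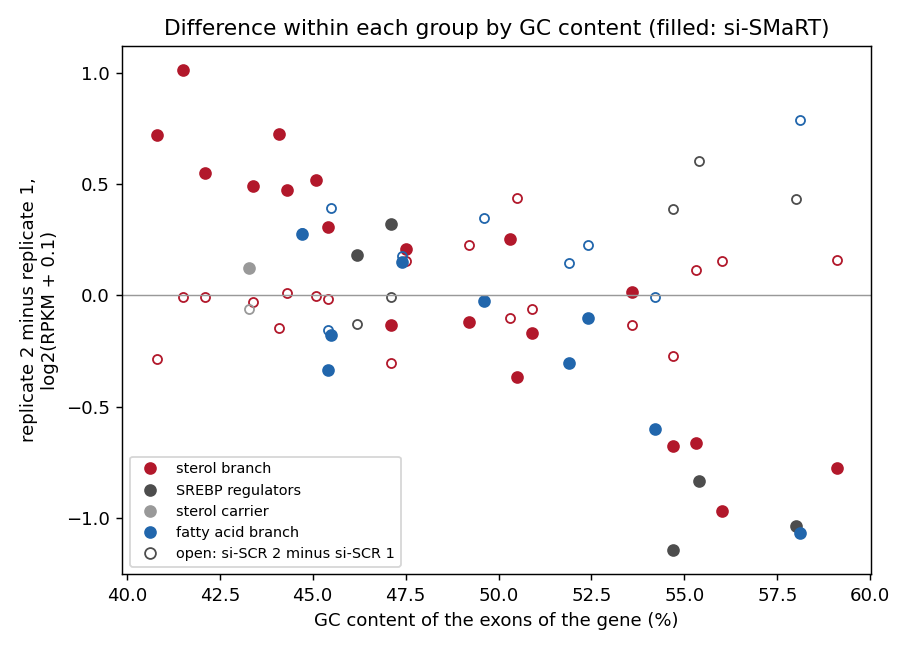
Difference between replicate 2 and replicate 1 in log2(RPKM + 0.1) against the GC content of the exons of each of the 34 genes, for si-SMaRT (filled points) and si-SCR (open points), with colours for the branches. The filled points descend from left to right (Spearman's rho -0.871), from Idi1 at a GC content of 41.5% to Fasn at 58.1%.

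The direction of the sterol branch was the same in both si-SMaRT samples. Against the si-SCR mean, si-SMaRT 1 was lower for 18 of 19 sterol genes (median -0.74 on the log2 scale) and si-SMaRT 2 for 16 of 19 (median -0.66). For the fatty acid branch, si-SMaRT 1 was lower for 5 of 9 genes (median -0.06) and si-SMaRT 2 for 7 of 9 (median -0.31). Of the regulators 2 of 5 were lower in si-SMaRT 1 and 4 of 5 in si-SMaRT 2, and their median moved from 0.31 to -0.25. Over all genes tested these medians were -0.004 in si-SMaRT 1 and 0.02 in si-SMaRT 2. When either si-SMaRT sample was left out, so that the other was taken to vary like the si-SCR samples, 14 members passed the threshold in each case. Without si-SMaRT 1, 13 members were lower and 1, Ggps1, was higher, against 14.9% and 11.3% of all genes. Without si-SMaRT 2, 11 were lower and 3, Srebf2, Scap and Fasn, were higher, against 3.51% and 4.98% of all genes. In the 2 cases Pmvk, Mvd, Fdps, Fdft1, Nsdhl and Ebp had differences from -0.69 for Fdft1 to -1.58 for Mvd on the log2 scale. These were all the members that passed as lower in both cases. The share of all genes that did so was not counted. Both fits take their spread from the same 2 si-SCR samples, so they are not independent of each other.

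**Figure D4:**
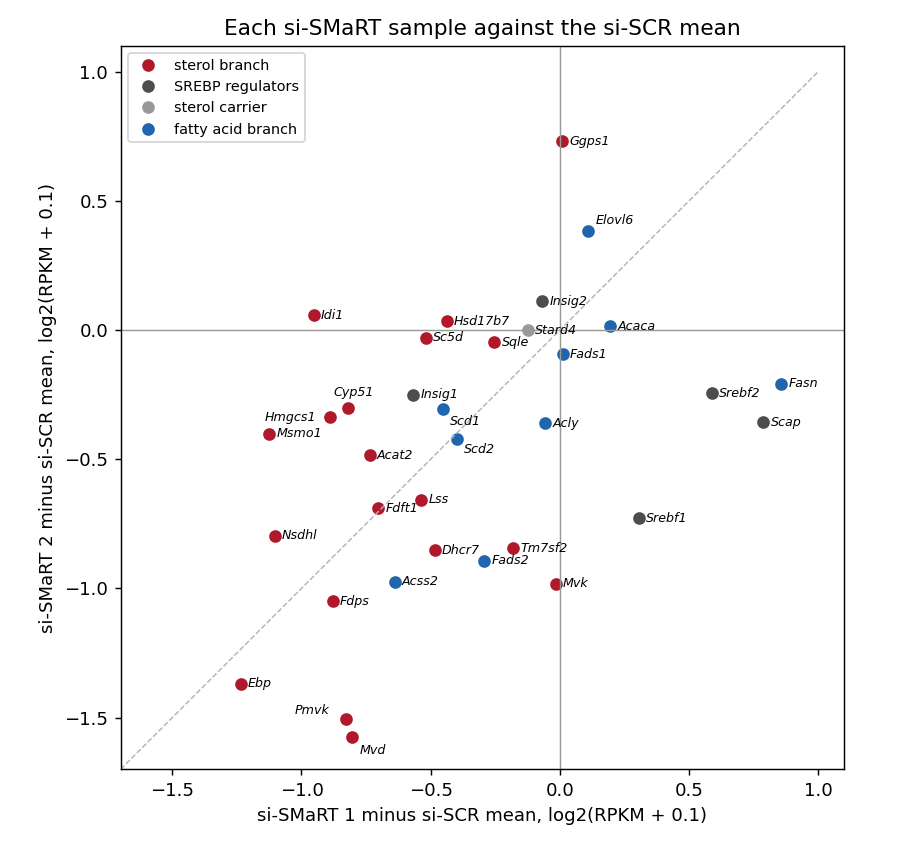
Difference of si-SMaRT 1 (horizontal axis) and si-SMaRT 2 (vertical axis) from the si-SCR mean in log2(RPKM + 0.1) for each of the 34 genes, with colours for the branches and a dashed line where both samples are equal. Ebp, Fdps, Nsdhl, Pmvk and Mvd lie far into the lower left corner, and Fasn, Srebf2, Scap and Srebf1 lie to the right of 0 and below it, where the samples have opposite signs.

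When the trend with GC content was removed from each sample, the sterol genes drew closer together between the si-SMaRT samples. Their mean difference from si-SCR was then -0.64 in si-SMaRT 1 and -0.63 in si-SMaRT 2, and both si-SMaRT samples were below both si-SCR samples for 18 of 19 sterol genes, 5 of 9 fatty acid genes and 1 of 5 regulators, against 29.3% of all genes. The remaining sterol gene, Ggps1, was then higher in both si-SMaRT samples, with a difference of 0.21 (limma adjusted p = 0.373, range 0.0038 to 1.0 over all alternatives). The genes past the threshold were 8 of the 19 sterol genes (Hmgcs1, Pmvk, Mvd, Fdps, Cyp51, Msmo1, Nsdhl and Ebp), all of them lower, and 0 of the 9 fatty acid genes and 0 of the 5 regulators, against 2.61% of all genes in that direction. Nsdhl had a limma adjusted p of 0.00492 in this fit, within a range from 9.59e-06 to 1.0 over all alternatives, and Mvd one of 0.00512, within a range from 8.24e-13 to 1.0. Fasn was then at a difference of 0.49, Srebf2 at 0.31 and Scap at 0.34 on the log2 scale, and none of these passed the threshold.

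A second list held 51 other genes of these pathways, of which 47 were tested. None passed the threshold in either direction with limma on log2 RPKM. At an unadjusted p under 0.05, 3 were lower and 1 was higher, and 5.6% of all genes tested were lower at this p. By mean 25 were lower and 22 higher, and 47.7% of all genes tested were lower. With limma-voom 1 gene of the list passed. This gene was Tspo, a protein of the outer mitochondrial membrane that binds cholesterol, which was also among genes that the study itself picked from these samples. Tspo was at 377 and 312 RPKM in si-SCR and at 176 and 76.4 RPKM in si-SMaRT, with a difference of -1.56 ± 0.34 (log2, SE, limma adjusted p = 0.0516). All 8 genes of SREBP processing and INSIG turnover, among them the proteases Mbtps1 and Mbtps2, had a higher mean, with a median of 0.29 and none past an unadjusted p of 0.05. The 12 other genes with SREBP responsive expression were lower in 6 and higher in 6, with a median of -0.02. Among the 8 genes that use prenyl diphosphates 5 were lower and 3 higher, and among 4 electron donors of the oxygen dependent steps 3 were lower and 1 higher. Of the 7 genes tested from the elongation cycle and other acyl steps 5 were lower, and of the 4 genes tested from the LXR side, esterification and efflux 3 were lower.

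In the pull-down, 0 of the 34 genes had an exon under any of the 345 peaks listed for lnc-SMaRT, and 0 had one under any of the 336 peaks listed for LacZ (shared strand, minimum overlap 1 base). Each list comes from 1 library, and the absence from a list of called peaks sets no limit on binding.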

How the data were processed

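RNA-seq of 4 C2C12 samples was used, with the peaks of 2 pull-down libraries. The authors used Trimmomatic for trimming, Bowtie 2 to discard rRNA and tRNA, TopHat2 to align the rest to GRCm38 (Ensembl 77 annotation) and HTSeq to count, filtered genes with low CPM, and deposited RPKM values calculated with edgeR after TMM normalization. The p-value of each peak was deposited by the authors from Piranha in bins of 200 bases, for LacZ with the input as covariate, and for lnc-SMaRT either with the input as covariate or against LacZ, since the list used here does not state which. The removal of genes with low values by the authors means that a gene that was not listed has no value here.

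Groups were taken from the labels. In R 4.3.3, limma 3.58.1 with a trended prior variance was applied to log2(RPKM + 0.1) for the 11086 genes whose mean reached 0.5 RPKM, with group as the only term, Benjamini-Hochberg adjustment over all genes and a threshold of 0.05. Fold changes on this scale understate the change of genes with low values. limma was also run on simulated reads that held no trend with GC content. That run therefore does not cover the difference between the si-SMaRT samples. Reads were recovered from the steps of the RPKM values for 11641 rows, and are lower limits for rows whose length was not fixed, 6452 being fixed. GC content came from GENCODE M21 exons on GRCm38, and its trend was removed by loess with a span of 0.3. Promoter windows were those of RefSeq, equal to the genome in 35 of 35 windows of the members. Python 3.11.15, pandas and matplotlib were used for the rest.

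The members and lists were chosen with earlier results of these data known. All members are named, with values in every sample for those past the threshold, with an unadjusted p under 0.05 or against their step, and further values were added after they were seen. Of the other pathway genes, those with an unadjusted p under 0.01 are named where none passed. The alternatives were pseudocounts of 1 and 0.01, no filter or a mean RPKM of at least 5, quantile normalization, equal medians, no trend, a replicate block, removal of the GC trend, both together, limma-voom on recovered reads, each sample left out, and other overlaps and p-values of peaks. A block with crossed numbers was added after the data were seen.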

Additional observations from a re-analysis of the deposited data

How the results depend on the processing

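Of the 34 genes, 23 kept the sign of their difference in all 16 alternatives, Dhcr7 and Acss2 kept it in the 15 that tested them, and 9 did not. The sterol branch median stayed below 0, at -0.56 with a pseudocount of 1, -0.57 with quantile normalization and between -0.74 and -0.56 with a sample left out. The fatty acid branch median was between -0.31 and -0.06, and the difference between the branch medians between -0.68 and -0.33, with a sample left out. Members past the threshold numbered 0 with quantile normalization, 0 without a trend in the prior variance, 2 with limma-voom, 8 with the GC trend removed and between 0 and 14 with a sample left out (0 without si-SCR 1 or si-SCR 2, 14 without si-SMaRT 1 or si-SMaRT 2). Genes past the threshold over the whole table numbered 37, 55, 106, 483 and between 24 and 2908 in the same order. Other pathway genes past the threshold numbered 1 with a pseudocount of 1, a mean RPKM of at least 5, equal medians, limma-voom or the GC trend removed, and between 0 and 14 with a sample left out (14 without si-SMaRT 1 and 5 without si-SMaRT 2).

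The replicate numbers 1 and 2 are shared between the groups, but the labels do not say whether same-numbered samples were paired. Their deviations had a Pearson r of -0.362 over genes, and of -0.189 with the GC trend removed. Because the si-SMaRT samples differ by GC content, these values cannot decide whether the samples were paired. With the replicate block, 96 genes, 0 members and 1 other pathway gene passed, and with the block and the GC trend removed 258, 6 and 1. With the numbers crossed, a block chosen after the data were seen, 487 genes, 5 members and 2 other pathway genes passed.

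The sign turned for Insig2 (-0.046) and Fads1 (0.034) with the GC trend removed, with or without the block. With a sample left out it also turned within the ranges of Idi1 (-0.95 to 0.059), Hsd17b7 (-0.44 to 0.035), Srebf1 (-0.73 to 0.31), Srebf2 (-0.25 to 0.59), Scap (-0.36 to 0.79), Insig2 (-0.067 to 0.11), Acaca (-0.0895 to 0.30), Fasn (-0.21 to 0.86) and Fads1 (-0.15 to 0.072). The cause was not tested. With the joined row of Tm7sf2 left out, 17 of 18 sterol genes were lower (median -0.61). No pull-down peak lay on a member with an overlap of at least 100 bases or among peaks with p under 0.001. With 2 samples per group, the 95% interval of a typical member spans more than 1 log2 unit.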
